A study of Mus musculus with 8 samples.

Results

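The 6 genes described here encode the transcription factors that repress epithelial genes during the epithelial-mesenchymal transition (EMT): Snai1 and Snai2 of the Snail family, Zeb1 and Zeb2 of the Zeb family, and Twist1 and Twist2 of the Twist family. They were chosen by name, through probesets whose only gene symbol is a member, and all 6 of the 19937 genes tested were found, each with 1 probeset. Their levels were read on 8 Affymetrix gene arrays, and the cells were NMuMG, an epithelial line from mouse mammary gland in which EMT is widely studied. All cells had been stably transfected. One line carried a control vector, the other a vector with major satellite sequences, which in the mouse genome form tandem repeats next to the centromeres, and each was left untreated or given TGFbeta for 8 h. Each of the 4 groups had 2 arrays, so their number limits the precision of every value. Whether the lines were clones or pools, and the TGFbeta dose, are not given in the sources used here.

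Snail and Zeb proteins are zinc finger repressors that bind E-boxes, short DNA motifs with the letters CANNTG, in the promoters of epithelial genes such as Cdh1, which encodes E-cadherin. Twist proteins are basic helix-loop-helix factors that bind E-boxes together with E-proteins such as Tcf3. In mammary epithelium TGFbeta acts through Smad proteins, and Snai1 is known as an early target of that pathway, while Zeb1 and Zeb2 are held down by microRNAs of the miR-200 family, which they repress in turn.

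The titles hold 2 codes, and each code occurs in 1 array per group, so the arrays are called replicate number 1 or 2 by code. Arrays of the same number deviated from their group means together across genes. Correlations were 0.758 to 0.874 over 12 pairs of arrays in different groups, with each value occurring 2 times because a group has only 2 arrays. Each comparison was therefore fitted with limma both without and with the replicate number as a block, and a gene passed at a Benjamini-Hochberg adjusted p under 0.05 over all 19937 genes. The labels do not say whether the arrays of a group came from separate cultures. A p-value here thus reflects the spread among these arrays alone, which may be technical. The labelled cell type was checked on marker genes. The mean signal of 15 epithelial markers was 9.93 to 10.33 on the 8 arrays, with the keratin gene Krt8 at 14.19 to 14.42 and Cdh1 at 12.72 to 13.16. That of 8 myoepithelial markers was 7.62 to 7.98, that of 13 fibroblast markers was 6.60 to 6.98, and that of 12 endothelial and immune markers was 6.58 to 6.94. Of the epithelial markers, Epcam (6.53 to 7.16), Cldn7 (6.70 to 7.03), Grhl2 (6.09 to 6.34) and the splicing regulator gene Esrp1 (5.90 to 6.28) were dim. The mesenchymal gene Vim was bright, at 14.08 to 14.22. Signals of different probesets are not amounts of RNA on 1 scale, and a lower signal in bulk RNA cannot tell fewer expressing cells from less RNA per cell.

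Annotated promoters are shown whether or not the gene was called for TGFbeta. In the averaged response 3 of the 6 genes were called without the block, when 4.83% of all genes were called. With the block 5 were called, when 24.3% of all genes were called. In each model 1 of these fell. RefSeq windows of GRCm38.p6 ran from 250 bases before to 50 bases after an annotated start. Windows of 4 of the 6 genes, Snai1, Zeb2, Twist1 and Twist2, were taken by symbol. They were searched on both strands for any E-box (CANNTG, which includes the next motif), for the E-box form known for Snail and Zeb factors (CAGGTG or CACCTG), for a Smad box (CAGAC or GTCTG) and for the AP-1 site (TGANTCA). Capitals mark every match. Zeb1 was left out of this search, and no window was matched by symbol for Snai2.

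Snai1 promoter, chr2:167537945-167538244, plus strand: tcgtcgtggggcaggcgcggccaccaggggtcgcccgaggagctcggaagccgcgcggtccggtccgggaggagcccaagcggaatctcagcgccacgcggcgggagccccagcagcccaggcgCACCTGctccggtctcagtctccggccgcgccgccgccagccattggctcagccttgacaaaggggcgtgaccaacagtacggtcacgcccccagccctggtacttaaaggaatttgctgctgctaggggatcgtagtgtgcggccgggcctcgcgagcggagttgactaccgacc

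Zeb2 promoter, chr2:45110228-45110527, minus strand: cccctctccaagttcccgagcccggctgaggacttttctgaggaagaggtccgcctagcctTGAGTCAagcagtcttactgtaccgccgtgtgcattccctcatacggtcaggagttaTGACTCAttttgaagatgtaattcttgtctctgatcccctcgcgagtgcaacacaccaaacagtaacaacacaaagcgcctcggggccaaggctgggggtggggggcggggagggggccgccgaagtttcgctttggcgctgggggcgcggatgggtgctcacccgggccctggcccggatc

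Twist1 promoter, chr12:33957421-33957720, plus strand: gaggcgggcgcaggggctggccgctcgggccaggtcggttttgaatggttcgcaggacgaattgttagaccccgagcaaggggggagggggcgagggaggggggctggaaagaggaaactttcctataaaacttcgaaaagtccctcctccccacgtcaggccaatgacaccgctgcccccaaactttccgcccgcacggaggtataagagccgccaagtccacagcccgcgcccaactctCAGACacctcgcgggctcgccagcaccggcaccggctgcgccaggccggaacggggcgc

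Twist2 promoter, chr1:91801211-91801510, plus strand: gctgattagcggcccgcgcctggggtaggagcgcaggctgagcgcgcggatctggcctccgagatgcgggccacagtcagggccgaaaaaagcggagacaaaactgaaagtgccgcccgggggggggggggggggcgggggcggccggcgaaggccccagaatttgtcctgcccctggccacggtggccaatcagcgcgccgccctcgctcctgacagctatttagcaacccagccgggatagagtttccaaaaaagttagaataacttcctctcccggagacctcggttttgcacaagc

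The Snai1 window held 1 E-box, CACCTG, starting 126 bases before the start. This form was present in 20.2% of all 32851 windows and any E-box in 72.3%. Zeb2 has 4 annotated starts, and the array does not tell which was in use. The window shown held the AP-1 forms TGAGTCA and TGACTCA, 189 and 132 bases before its start, and AP-1 sites were present in 7.81% of all windows. The other 3 Zeb2 windows had no match to any of the motifs, so the window shown is the only 1 of the 4 with a match. The 7.81% is a share of windows, and the share among genes with 4 windows was not computed. Twist1 had 1 Smad box, CAGAC, 9 bases before the start, as did 49.6% of windows in either orientation. The Twist2 window had none of these letters. These matches describe the sequence alone, since binding was not measured.

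TGFbeta raised some of the 6 genes and lowered another. Averaged over both vectors, Snai1 rose 3.08-fold and Zeb1 1.76-fold, and Twist2 fell 1.96-fold, in the model without the replicate number (limma, adjusted p = 0.0238, 0.00599 and 0.00548). With the replicate number as a block, Zeb2 (1.59-fold) and Snai2 (1.44-fold) also rose. Twist1 was called in neither model. In all, 2 of the 6 genes rose, 1 fell and 3 were not called without the block, when 4.83% of all genes were called, 2.57% higher and 2.25% lower. With the block 4 rose, 1 fell and 1 was not called, when 24.3% of all genes were called, 11.2% higher and 13.1% lower. The median change over all genes was 0.02 on the log2 scale.

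**Figure D1:**
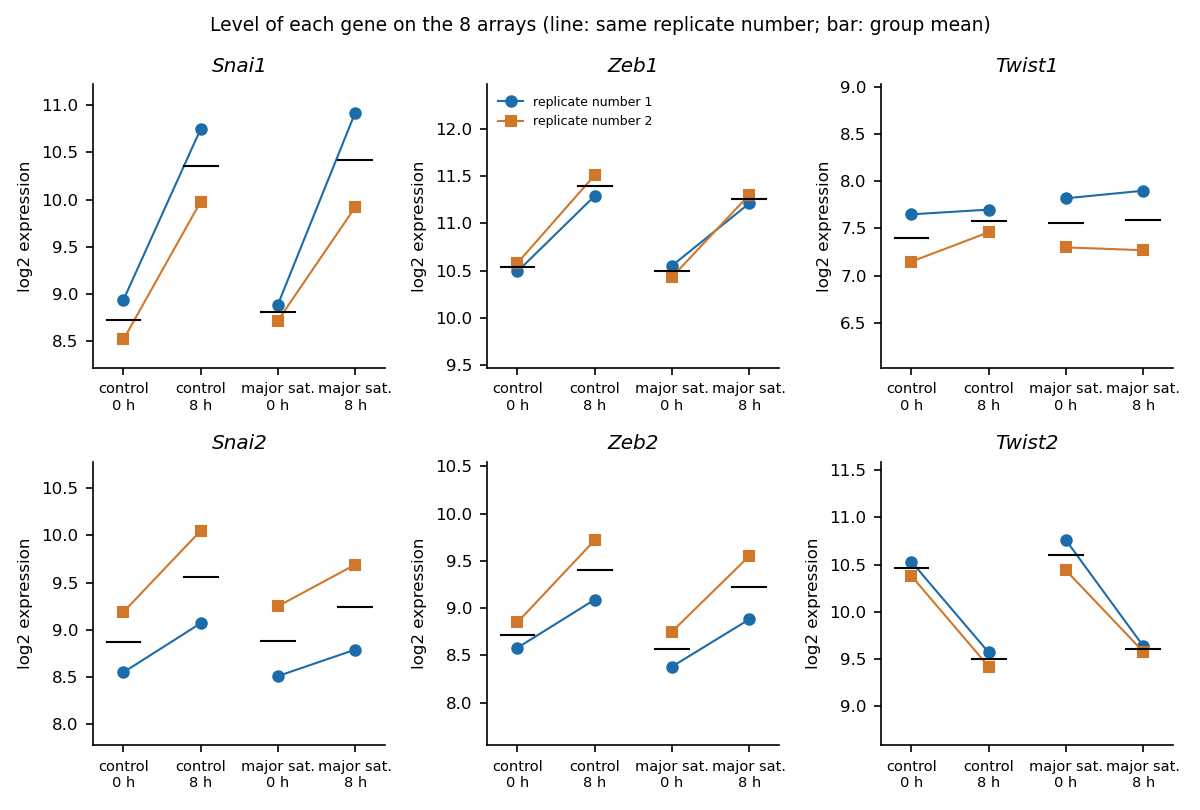
Level of the 6 genes on each array, as log2 expression, in control vector and major satellite cells at 0 h and 8 h of TGFbeta. Lines join arrays of 1 replicate number and bars are group means. Every panel spans the same height on the log2 axis. Snai1, Zeb1 and Zeb2 are higher on all treated arrays and Twist2 is lower on all of them.

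Snai1 encodes Snail, the repressor whose binding to the E-cadherin promoter is the textbook early step of EMT. In control vector cells its log2 level was 8.94 and 8.52 on the untreated arrays (replicate numbers 1 and 2) and 10.75 and 9.98 on the treated ones. With major satellite it was 8.89 and 8.72 without and 10.92 and 9.92 with TGFbeta. Every treated array was above every untreated array, and replicate number 1 was higher than number 2 in each group. The difference within a replicate number was 1.81 and 1.46 in control vector cells and 2.03 and 1.19 in major satellite cells. The fitted difference was 1.63 ± 0.38 (SE, 2 arrays per group) in control vector cells, where limma gave an adjusted p of 0.147 without the block and 0.000325 with it (1.63 ± 0.17). The difference in major satellite cells was 1.61 ± 0.38 (limma adjusted p = 0.146), and 1.61 ± 0.17 with the block (limma adjusted p = 0.000366). The averaged rise of 1.62 ± 0.27 placed Snai1 at rank 47 from the top of the 19937 genes. Leaving out 1 array at a time, Snai1 passed in 8 of 8 averaged fits with the block. Without the block it passed in the 2 of 8 that left out a treated array of replicate number 2, and leaving out any other array gave limma adjusted p up to 0.094.

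Snai2 encodes Slug, the second E-box repressor of the Snail family. Its level in control vector cells was 8.55 and 9.19 without TGFbeta and 9.07 and 10.05 with it. Major satellite cells had 8.51 and 9.25 without and 8.79 and 9.69 with TGFbeta. Treated and untreated arrays overlapped, because arrays of replicate number 2 were on average 0.82 above those of number 1, a gap larger than the averaged response of 0.53 ± 0.33. Within each replicate number the treated array was the higher one in both lines, by 0.52 and 0.86 with the control vector and by 0.28 and 0.44 with major satellite. The averaged difference had an adjusted p of 0.62 without the block and of 0.00063 with it (0.53 ± 0.07). The blocked adjusted p was 0.00192 in control vector cells (0.69 ± 0.10) and 0.0427 in major satellite cells (0.36 ± 0.10). The latter lay closest to the threshold, and it held in 4 of the 8 blocked fits that left out 1 array. The 4 fits without it were those that left out an array of the major satellite line, with adjusted p up to 0.277.

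Zeb1 encodes a repressor with zinc fingers at both ends, which shares E-boxes with Snail. It stood at 10.49 and 10.58 in untreated and 11.29 and 11.51 in treated control vector cells. With major satellite it stood at 10.55 and 10.43 without and at 11.21 and 11.30 with TGFbeta. The treated arrays lay between 11.21 and 11.51 and the untreated ones between 10.43 and 10.58, and the 2 replicate numbers differed by 0.07 on average. Zeb1 rose by 0.87 ± 0.13 in control vector cells (limma adjusted p = 0.0401, blocked 0.000502). In major satellite cells it was 0.77 ± 0.13 higher, with a limma adjusted p of 0.0546 without and 0.00101 with the block. Its averaged rise of 0.82 ± 0.09 passed in 8 of 8 fits that left out 1 array, in both models.

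Zeb2, also called Sip1 for its binding to Smad proteins, is the second Zeb repressor. Its level was 8.58 and 8.85 in untreated and 9.09 and 9.72 in treated control vector cells. With major satellite it was 8.38 and 8.75 without and 8.88 and 9.55 with TGFbeta. The lowest treated array (8.88) lay just above the highest untreated one (8.85), and replicate number 2 was on average 0.49 above number 1. The response was 0.69 ± 0.30 in control vector cells (limma adjusted p = 0.582, blocked 0.00342) and 0.65 ± 0.30 in major satellite cells (limma adjusted p = 0.597, blocked 0.00453). Averaged over vectors it was 0.67 ± 0.21 (limma adjusted p = 0.181), and 0.67 ± 0.08 with the block (limma adjusted p = 0.000274). In each line the blocked call was lost without the untreated or the treated array of replicate number 2 of that line (limma adjusted p up to 0.0553 with the control vector and 0.0625 with major satellite). The antisense gene Zeb2os, which lies at the Zeb2 locus and was picked after its values were seen, was 0.23 ± 0.17 higher and was not called (limma adjusted p = 0.715, blocked 0.0545).

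Twist1 encodes the Twist factor most often linked to EMT and metastasis. It was at 7.65 and 7.15 in untreated and 7.70 and 7.46 in treated control vector cells. Major satellite cells were at 7.82 and 7.30 without and 7.90 and 7.27 with TGFbeta. Treated and untreated arrays overlapped, and replicate number 1 was higher than number 2 in every group, by 0.47 on average. The averaged difference was 0.10 (95% confidence interval -0.39 to 0.59, blocked -0.06 to 0.27), with a limma adjusted p of 0.932 (blocked 0.37). The blocked interval corresponds to a fold between 0.957 and 1.21. The mean level of Twist1 over the 8 arrays, 7.53, was below the median of 8.19 over all genes. For a signal that low, the narrow interval is not read as evidence that the RNA was unchanged.

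Twist2, also known as Dermo1, encodes the close relative of Twist1 that is best known from dermal and other mesenchymal cells. Its level was 10.53 and 10.38 in untreated and 9.57 and 9.42 in treated control vector cells. In major satellite cells it was 10.76 and 10.44 without and 9.64 and 9.58 with TGFbeta. All treated arrays (9.42 to 9.64) were below all untreated ones (10.38 to 10.76), the reverse of Snai1, Zeb1 and Zeb2. Over all genes, 7.38% were higher on every treated than on every untreated array and 7.37% were lower. Twist2 fell by 0.96 ± 0.15 in control vector cells (limma adjusted p = 0.0447, blocked 0.000202), the same in both replicate numbers. In major satellite cells it fell by 0.98 ± 0.15 (limma adjusted p = 0.0428, blocked 0.000193), with -1.11 and -0.86 within the replicate numbers. Its averaged change of -0.97 ± 0.10 was rank 216 from the bottom of all genes, and it passed in 8 of 8 fits that left out 1 array, in both models.

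**Figure D2:**
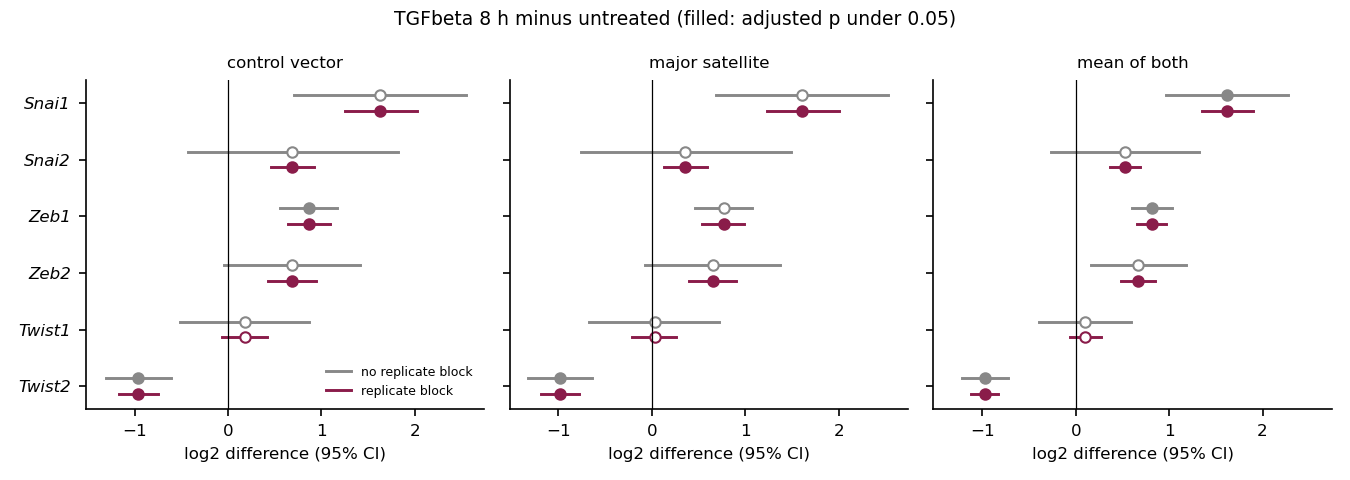
TGFbeta at 8 h minus untreated, as log2 differences with 95% confidence intervals, for the 6 genes in control vector cells, in major satellite cells and as the mean of both. Grey is the limma model without and dark red the model with the replicate block, and filled points passed an adjusted p of 0.05. The block leaves each difference where it is and narrows the intervals, that of the averaged Snai2 response from -0.27 to 1.32 to 0.37 to 0.69, and Twist2 lies on the other side of 0 from the genes that rose.

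By line, 1 of the 6 genes rose (Zeb1), 1 fell (Twist2) and 4 were not called in control vector cells without the block, when 1.07% of all genes were called, 0.707% higher and 0.366% lower. With the block 4 rose and 1 fell there, when 14.6% of all genes were called, 6.92% higher and 7.63% lower. In major satellite cells 0 rose, 1 fell (Twist2) and 5 were not called without the block, when 1.09% of all genes were called, 0.682% higher and 0.411% lower. With the block 4 rose and 1 fell in that line, when 15.3% of all genes were called, 6.89% higher and 8.38% lower. The calls made in 1 line without the block were lost in each of the 8 fits that left out 1 array, where Zeb1 in control vector cells had an adjusted p of 0.0909 to 0.253 and Twist2 of 0.0636 to 0.282 there and 0.0799 to 0.272 in major satellite cells.

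The vector for major satellite was then set against the control vector, with and without TGFbeta. None of the 6 genes was called in either setting or in the difference between the TGFbeta responses, with or without the block. Over all genes 0.00502% were called in either treatment without the block (1 gene, Kcnma1) and 0.0301% with it (6 genes), and 0 genes were called for the difference between the responses in either limma model. At an unadjusted p under 0.05 there were 44 genes for that difference without the block and 658 with it. In untreated cells Snai1 differed by 0.08 (95% confidence interval with the block -0.31 to 0.46), Snai2 by 0.01 (-0.22 to 0.24) and Zeb1 by -0.04 (-0.27 to 0.18). Zeb2 differed by -0.15 (-0.41 to 0.10), Twist1 by 0.16 (-0.08 to 0.39) and Twist2 by 0.14 (-0.06 to 0.35). After TGFbeta the differences were 0.06 (-0.33 to 0.44) for Snai1, -0.32 (-0.55 to -0.09) for Snai2 and -0.14 (-0.37 to 0.08) for Zeb1. They were -0.19 (-0.44 to 0.06) for Zeb2, 0.00 (-0.23 to 0.24) for Twist1 and 0.12 (-0.09 to 0.32) for Twist2.

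With the block, 1298 of the 19937 genes differed between vectors in treated cells at an unadjusted limma p under 0.05. Snai2 was the 1 member among them. Its blocked interval did not reach 0, and its major satellite arrays were lower by 0.28 and 0.36 in the 2 replicate numbers. Over all genes that difference did not pass, with a limma adjusted p of 1 without and 0.752 with the block. Its TGFbeta response was smaller by 0.33 in major satellite cells (blocked interval -0.66 to -0.01, limma adjusted p = 1 and blocked 0.999). For Snai1 the responses of the lines differed by -0.02 (blocked interval -0.57 to 0.53) and for Twist2 by -0.02 (-0.32 to 0.27). Differences within those intervals remain compatible with these arrays, and the size detectable with 2 arrays per group was not computed.

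**Figure D3:**
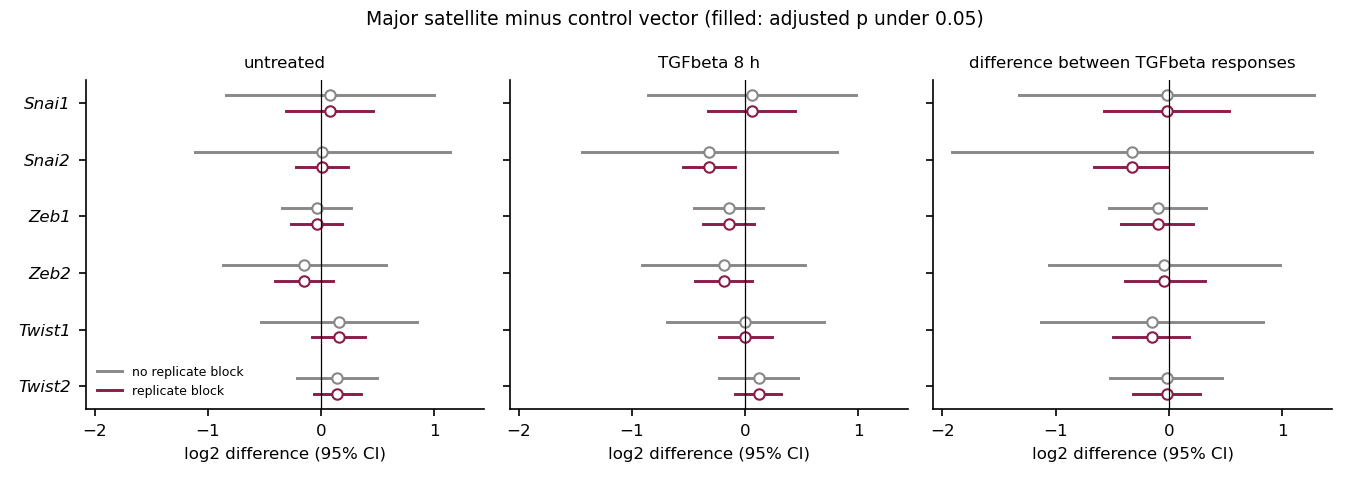
Major satellite minus control vector for the 6 genes, as log2 differences with 95% confidence intervals, in untreated cells, after 8 h of TGFbeta, and as the difference between the TGFbeta responses. Colours are as in the plot of TGFbeta differences. No point is filled, and the Snai2 point after TGFbeta is the lowest of the middle panel, at -0.32.

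The rest of the pathway was read from lists of genes by role, given here for the TGFbeta response averaged over vectors, in which 4.83% of all genes were called without the block (2.57% higher, 2.25% lower) and 24.3% with it (11.2% higher, 13.1% lower). Of 20 TGFbeta and Smad inputs, 5 rose, 0 fell and 15 were not called (blocked 12 rose and 1 fell, median 0.40). Smad7, the feedback inhibitor of the receptors, rose by 1.20 ± 0.10, Ski, a Smad corepressor, by 1.01 ± 0.09 and Ltbp1, which binds latent TGFbeta in the matrix, by 0.95 ± 0.08. Skil, a relative of Ski, rose by 1.31 ± 0.06 and the type I receptor gene Tgfbr1 by 0.91 ± 0.07 in the blocked model. Of 17 other EMT transcription factors, 4 rose and 13 were not called (blocked 9 rose and 1 fell, median 0.20). These 4 were Runx1 (1.22 ± 0.09), Sox9 (0.93 ± 0.16), Sox4 (0.50 ± 0.10) and Ets1 (0.37 ± 0.07). Hmga2, a chromatin protein that binds the Snai1 promoter with Smads, was 0.41 ± 0.16 higher and passed with the block (limma adjusted p = 0.295, blocked 0.00334).

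Of 10 Snail and Twist family relatives none was called by limma without the block, against 4.83% of all genes (962 genes, and 2982 at an unadjusted p under 0.05). With the block 1 of the 10 rose, against 11.2% of all genes. It was Scx, which encodes the tendon factor scleraxis (1.03 ± 0.12, limma adjusted p = 0.000252). Snai3, the third Snail gene, was 8.04 to 8.75 on untreated and 8.22 to 8.66 on treated arrays, so these overlapped. Its averaged difference was 0.06 ± 0.19 (limma adjusted p = 0.962, blocked 0.69).

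Of 24 partners and corepressors, 2 rose, 1 fell and 21 were not called (blocked 3 rose, 7 fell and 14 were not called, median -0.07, beside 11.2% of all genes higher and 13.1% lower). Ctbp2, a corepressor that Zeb proteins recruit, rose by 0.41 ± 0.08, and Kdm1a, the histone demethylase LSD1 that Snail recruits, by 0.48 ± 0.10. Id2, which sequesters the E-proteins that Twist factors pair with, fell by 1.89 ± 0.14. With the block Id3 fell by 1.24 ± 0.09, Id1 by 0.67 ± 0.07 and Suz12 by 0.46 ± 0.06. Id4, the other Id gene of the list, differed by -0.04 ± 0.08 with the block (limma adjusted p = 0.763) and was not called. Of 19 regulators of the stability of these proteins none was called without the block, against 4.83% of all genes. With it 4 rose and 2 fell, when 24.3% of all genes were called, so neither count is read as a result about the list. The 2 that fell were Atm, by 0.70 ± 0.07 and Fbxl5, an F-box gene, by 0.35 ± 0.06, both in the blocked model. Among the 4 that rose, Csnk1e (0.29 ± 0.06) and Usp27x (0.27 ± 0.06) had the smallest p in that model. Loxl2, a known Snail partner, shares its probeset with another gene symbol and is not analysed here.

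**Figure D4:**
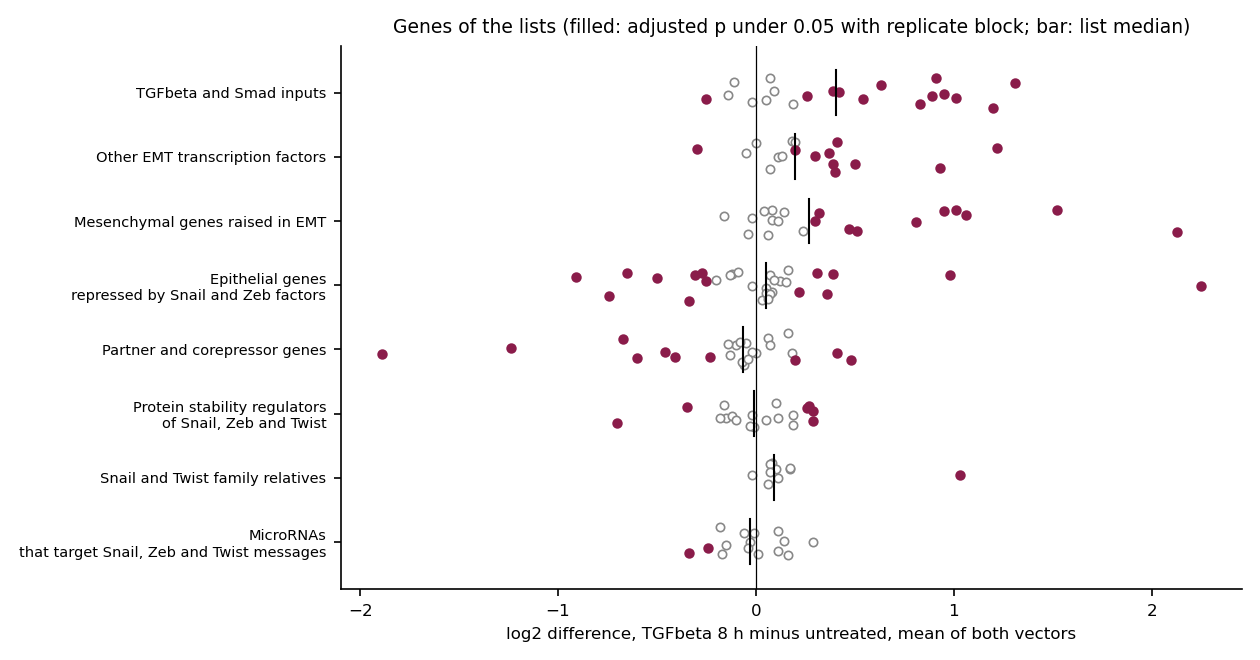
TGFbeta response averaged over vectors, as log2 difference, for each gene of the 8 lists that surround the Snail, Zeb and Twist genes. Each point is a gene, filled where it passed an adjusted p of 0.05 with the replicate block, and the bar is the list median. Epithelial genes repressed by these factors lie on both sides of 0 with a median of 0.05, and mesenchymal genes that passed lie on the right.

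Known target genes of these repressors passed in both directions at 8 h, as did genes in general. Without the block 2.57% of all genes were called higher and 2.25% lower. With it 11.2% were called higher and 13.1% lower. Of 30 epithelial genes known as repressed by Snail or Zeb factors, 2 rose, 2 fell and 26 were not called, and with the block 6 rose and 8 fell (median 0.05). Cdh1 was 12.84 and 13.16 in untreated and 12.74 and 13.11 in treated control vector cells, and 12.82 and 13.07 without and 12.72 and 12.85 with TGFbeta in major satellite cells. Those values overlapped, and the averaged difference was -0.12 ± 0.13 (limma adjusted p = 0.857, blocked 0.241). Muc1, a membrane mucin gene, fell by 0.91 ± 0.08 and the keratin gene Krt19 by 0.74 ± 0.11. Cldn4, a claudin of tight junctions, rose by 2.25 ± 0.10, and the vitamin D receptor gene Vdr by 0.98 ± 0.12. Of 20 mesenchymal genes, 5 rose, 0 fell and 15 were not called (blocked 10 rose and 0 fell, median 0.27). Fn1, which encodes fibronectin, rose by 0.81 ± 0.10, and Vim, the vimentin gene, differed by 0.06 ± 0.07 (limma adjusted p = 0.882, blocked 0.528). Of 13 fibroblast markers 1 rose (Pdgfra, by 0.66 ± 0.12), with the block 3 rose and 0 fell. Of 8 myoepithelial markers 1 fell, the myosin kinase gene Mylk, by 0.89 ± 0.12 (limma adjusted p = 0.0106), and with the block Krt14 rose by 0.44 ± 0.10 and Acta2 by 0.30 ± 0.06. Of 12 endothelial and immune markers 0 were called, and with the block 2 rose. Beside the shares over all genes, the counts of the marker lists are not read as results about those cell types. The part of these markers in the results for the 6 genes was not tested.

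MicroRNA genes that target these messages are shown with their mature sequences because the seed, bases 2 to 8 from the 5′ end, in capitals, decides which messages they pair with. The sequences are from RefSeq, GRCm38.p6, and are grouped by seed, miR-200a with miR-141, miR-200b with miR-200c, and miR-30a with miR-30e.

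mmu-miR-200a-3p: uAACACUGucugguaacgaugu

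mmu-miR-141-3p: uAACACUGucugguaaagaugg

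mmu-miR-200b-3p: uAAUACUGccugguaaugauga

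mmu-miR-200c-3p: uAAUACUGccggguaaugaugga

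mmu-miR-30a-5p: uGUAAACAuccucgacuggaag

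mmu-miR-30e-5p: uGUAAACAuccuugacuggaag

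Probesets on these arrays read the hairpin or host transcript of a microRNA gene, not its mature form. Of 15 such genes none was called for the averaged response without the block, against 4.83% of all genes. With it 0 rose and 2 fell, when 13.1% of all genes were called lower, so the count is not read as a result about these genes. Those were Mir30a, by 0.34 ± 0.08 (limma adjusted p = 0.0106), and Mir30e, by 0.24 ± 0.06 (limma adjusted p = 0.0261). They share the seed GUAAACA and belong to a family that targets the Snai1 message. Their signals were low, at 6.37 to 7.31 for Mir30a and 6.3 to 8.14 for Mir30e, below the median of 8.19 over all genes. For signals that low, the small differences are not read as a change in these microRNAs, and a link to Snai1 was not tested. By line, with the block, Mir30a differed by -0.30 ± 0.11 in control vector cells (limma adjusted p = 0.106) and fell by 0.37 ± 0.11 in major satellite cells (limma adjusted p = 0.0492). Mir30e differed by -0.11 ± 0.09 in control vector cells (limma adjusted p = 0.55) and fell by 0.36 ± 0.09 in major satellite cells (limma adjusted p = 0.0266). The 4 measured miR-200 genes, which target Zeb1 and Zeb2, differed by -0.03 to 0.16 and were not called with the block, with limma adjusted p from 0.205 to 0.965. With the block Mir200c was called higher in major satellite cells and not in control vector cells. The difference between the lines was called for none of these genes.

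The genes most like each called member were found by Pearson correlation over the 8 arrays, after the mean of each replicate number had been removed, among the 9577 genes whose mean level was at or above the median of all genes and that were neither predicted or uncharacterised loci nor small RNA genes. The arrays fall into treated and untreated sets, so these coefficients mostly describe that split and carry no test. For Snai1 they were Strada, Ing4 and Vegfa (r = 0.997, 0.997 and 0.996), with averaged rises in the blocked model of 0.20, 0.35 and 0.79. For Snai2 they were Spty2d1, Klf9 and Rrbp1 (r = 0.990, 0.989 and 0.989). Zeb1 was closest to Pitpnc1, Smtn and Pmepa1 (r = 0.999, 0.998 and 0.998), which rose by 0.99, 0.84 and 0.89, close to the 0.82 of Zeb1. Zeb2 was closest to Sbno2, Rusc2 and Clu (r = 0.996, 0.994 and 0.994). For Twist2 they were Fam241a, Tlcd1 and Zfp623 (r = 0.997, 0.996 and 0.996), which fell by 1.07, 0.84 and 0.37 with the block. Among the members, Zeb2 followed Zeb1 (r = 0.97) and Snai2 (r = 0.96), Twist2 ran against Snai1 (r = -0.98), and Twist1 had coefficients of -0.44 to 0.52 with the other 5.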

How the data were processed

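The table deposited by the authors holds log2 expression of 34760 probesets on 8 arrays, in the range that robust multi-array average (RMA) gives. Per the submitters' processing notes, RMA and limma were used. Their versions and roles and the genome build are not given in the sources used here. Array medians were 7.72 to 7.76 for replicate number 1 and 7.88 to 7.92 for number 2. Probesets with 1 symbol in the platform's probe table (21640) were used. Symbols were taken from RefSeq GRCm38.p6 where the Entrez identifier was found there (19855 genes, changed or not). The other 82 genes kept the symbol of the probe table. The brightest probeset stood for a gene (19937 genes, 954 with several).

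All differences come from limma 3.58.1 under R 4.3.3, with default lmFit and eBayes on all 8 arrays, 1 mean per group, two-sided, with 4 residual degrees of freedom, and 3 with the replicate number as a block. The pairing rests on the title codes and on the correlations in the text. Errors are standard errors. The script was tested on simulated data with independent noise, which checks the code and not the calls made here. The 6 genes, the lists and the alternatives were chosen with earlier results of these data known. Named genes are the 6, 6 measured genes set whatever their p (Cdh1, Fn1, Vim, Smad7, Hmga2, Snai3), up to 4 called genes of a list with the smallest p, in either model, and the 3 genes most like a called member. Alternatives were the block, leaving out each array with and without it, quantile normalization, median centring, an eBayes trend with robust variances, a level filter, the mean of probesets, and values within a replicate number.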

Additional observations from a re-analysis of the deposited data

How the results depend on the processing

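With the replicate number as a block, 5 of the 6 genes were called in control vector cells, in major satellite cells and in the averaged response, against 2, 1 and 3 without it. The eBayes trend with robust variances called 0 in either line, and median centring called 1 in control vector cells. Leaving out 1 array at a time, over both models, gave 0 to 5 called genes in control vector cells and in major satellite cells and 2 to 5 in the averaged response. Without the block it was 0 in each line for every array left out, and a group with 1 array left was assumed to vary like the others. Each alternative that was run, leaving out an array included, called 0 members between vectors and 0 for the difference between the responses. Quantile normalization turned Twist1 to -0.03 in the major satellite response and to -0.01 between vectors after TGFbeta, and median centring turned the latter to -0.00 (rounded), and the cause was not tested. The level filter left out Twist1, which was below it in every group. No other fitted setting except leaving out an array turned the sign of a difference. Values within 1 replicate number turned the sign of some small differences. In untreated cells Snai1 between vectors was -0.05 in replicate number 1 against a fitted 0.08, and Zeb1 was 0.06 against -0.04. For the difference between the TGFbeta responses Snai1 was 0.22 in replicate number 1 against -0.02, and Twist2 was 0.11 in replicate number 2 against -0.02. Where leaving out an array turned the sign of a small difference, over both models, the ranges were as follows. In the TGFbeta response in control vector cells the range was -0.07 to 0.43 for Twist1. In the TGFbeta response in major satellite cells the range was -0.09 to 0.81 for Snai2 and -0.29 to 0.34 for Twist1. In the averaged TGFbeta response the range was -0.05 to 0.26 for Twist1. In major satellite against control in untreated cells the range was -0.21 to 0.36 for Snai1, -0.36 to 0.39 for Snai2, -0.17 to 0.08 for Zeb1, -0.34 to 0.04 for Zeb2, -0.10 to 0.41 for Twist1 and -0.02 to 0.30 for Twist2. In major satellite against control after TGFbeta the range was -0.44 to 0.56 for Snai1, -0.81 to 0.17 for Snai2, -0.52 to 0.14 for Zeb2 and -0.31 to 0.32 for Twist1. In the difference between the TGFbeta responses the range was -0.52 to 0.48 for Snai1, -0.82 to 0.16 for Snai2, -0.23 to 0.03 for Zeb1, -0.37 to 0.30 for Zeb2, -0.47 to 0.16 for Twist1 and -0.18 to 0.13 for Twist2.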
